A study of Mus musculus with 8 samples.

Results

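The p53 pathway genes described here were 9 mouse genes, namely Trp53, Mdm2, Mdm4, Ccng1, Bbc3, Bax, Zmat3, Trp53inp1 and Sesn2. They were chosen by name, with earlier results of these data known, among 21883 protein-coding genes of build GRCm38.p6 (mm10). Every accessible region that overlapped the span of a gene extended by 50 kb on both sides was taken. The rule found 104 of the 76872 regions of the series, or 0.135%, and no region lay in the windows of more than 1 gene. Chromatin accessibility had been measured by ATAC-seq, in which a transposase inserts adapters into open DNA, in a clonal line of mouse induced pluripotent stem cells (iPSCs) that carries FUCCI2, a pair of fluorescent cell cycle reporters. The cells grew on irradiated feeders in medium with serum, LIF, a MEK inhibitor and a GSK3 inhibitor, and the 8 libraries formed 4 groups of 2 replicates: cells shaken off in mitosis after 6 hours in nocodazole at 200 ng/ml, cells 1 hour and 3 hours after release from it, and untreated asynchronous cells. The deposited file was a single list of regions for the whole series that gave the chromosome and the limits of every region. It held no value per library, so no region could be assigned to mitotic, released or asynchronous cells, the depth behind a region is unknown, and what follows describes where chromatin was open in at least part of the series.

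p53, the product of Trp53, is a transcription factor that is kept at a low level in unstressed cells because Mdm2, a ubiquitin ligase, marks it for degradation and Mdm4, a relative of Mdm2, binds and restrains it. DNA damage and other stress release p53, which then activates genes for cell cycle arrest, cell death and metabolic adjustment, among them Mdm2 itself, whose p53-responsive promoter lies inside the gene downstream of its first start. In pluripotent stem cells the pathway is known to limit the survival of damaged cells and the efficiency of reprogramming.

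Promoter sequences at 6 of the starts are given first because the motif positions below refer to them. RefSeq, build GRCm38.p6, gave 10 promoters for 7 of the 9 genes, each of 250 bases before the start and 50 from the start base onwards. Zmat3 and Trp53inp1 had no entry. Each sequence is written 5′ to 3′ on the strand of its gene. Accessible bases are not marked in them, and how many of the 300 lay inside a region is given with the gene. Capitals mark every match, on either strand, to the GC box GGGCGG, the CCAAT box, the TATA box TATAAA, the E-box CACGTG, the ETS-type motif CCGGAAG and the p53 response element with up to 3 mismatches outside its 2 cores of 4 bases. The stretches shown are chr11:69580109-69580408 for Trp53 (plus strand), chr10:117710709-117711008 for Mdm2 (minus strand), chr1:133025367-133025666 and chr1:133030538-133030837 for the inner and outer starts of Mdm4 (minus strand), chr11:40755237-40755536 for Ccng1 (minus strand) and chr7:16309333-16309632 for the first start of Bbc3 (plus strand).
Trp53: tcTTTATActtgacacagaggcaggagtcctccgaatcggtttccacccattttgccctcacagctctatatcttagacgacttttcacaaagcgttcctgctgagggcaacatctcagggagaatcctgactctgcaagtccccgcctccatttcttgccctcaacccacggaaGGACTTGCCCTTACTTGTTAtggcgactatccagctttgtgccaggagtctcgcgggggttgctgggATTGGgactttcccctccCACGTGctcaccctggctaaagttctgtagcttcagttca
Mdm2: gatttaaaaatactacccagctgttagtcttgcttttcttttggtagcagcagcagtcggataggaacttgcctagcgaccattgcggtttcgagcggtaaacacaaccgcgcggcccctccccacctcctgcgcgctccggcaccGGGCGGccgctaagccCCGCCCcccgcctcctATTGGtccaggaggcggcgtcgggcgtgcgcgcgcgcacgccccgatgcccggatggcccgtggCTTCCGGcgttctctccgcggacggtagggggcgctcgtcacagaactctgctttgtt
Mdm4, inner start: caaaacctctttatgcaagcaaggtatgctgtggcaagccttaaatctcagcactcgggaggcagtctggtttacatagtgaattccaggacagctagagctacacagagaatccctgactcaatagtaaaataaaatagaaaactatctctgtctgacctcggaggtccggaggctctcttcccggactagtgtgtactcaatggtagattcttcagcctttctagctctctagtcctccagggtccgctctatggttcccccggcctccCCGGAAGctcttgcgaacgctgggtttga
Mdm4, outer start: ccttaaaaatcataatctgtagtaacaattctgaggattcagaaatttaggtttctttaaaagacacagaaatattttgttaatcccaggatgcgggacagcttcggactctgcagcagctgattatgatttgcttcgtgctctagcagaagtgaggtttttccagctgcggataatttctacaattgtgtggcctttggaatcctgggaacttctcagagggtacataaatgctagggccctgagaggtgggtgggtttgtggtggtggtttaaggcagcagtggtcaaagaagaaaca
Ccng1: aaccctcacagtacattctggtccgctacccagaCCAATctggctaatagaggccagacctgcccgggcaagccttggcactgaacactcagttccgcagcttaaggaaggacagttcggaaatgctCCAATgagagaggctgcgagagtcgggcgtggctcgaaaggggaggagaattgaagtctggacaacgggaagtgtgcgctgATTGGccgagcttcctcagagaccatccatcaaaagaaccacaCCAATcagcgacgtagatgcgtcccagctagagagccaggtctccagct
Bbc3, first start: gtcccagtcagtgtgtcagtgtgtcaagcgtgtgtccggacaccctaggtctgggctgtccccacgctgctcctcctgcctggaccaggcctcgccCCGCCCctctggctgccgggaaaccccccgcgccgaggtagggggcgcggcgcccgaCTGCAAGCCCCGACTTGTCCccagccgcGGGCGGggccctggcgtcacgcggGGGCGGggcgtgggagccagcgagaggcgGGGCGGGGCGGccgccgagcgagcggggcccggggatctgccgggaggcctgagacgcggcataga

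All 9 genes had an accessible region within 1 kb of a start (95% Wilson interval 70.1 to 100%), against 62.3% of all protein-coding genes. For Zmat3 and Trp53inp1, whose start was not in the promoter table, either outer end of the gene counted, as it did for other genes without an entry. All 7 genes with an annotated start had at least 1 start base inside a region, against 53.3% of the 17491 protein-coding genes with an annotated start. The list of all protein-coding genes was not restricted to expressed genes. Of 40 other genes of the pathway, 38 (95%, Wilson interval 83.5 to 98.6%) had a region at a start as well. Intervals cover counting error only, as if genes were drawn at random. Both lists were chosen with earlier results of these data known, so the intervals are no test against the share of all genes.

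At Trp53, the gene of the transcription factor itself, accessibility was divided among several regions of moderate width. A region of 445 bp at chr11:69580037-69580481 covered the start base and reached 322 bp upstream and 122 bp downstream of it. It was flanked by a region of 492 bp that ended 855 bp upstream of the start and by one of 479 bp that began 806 bp downstream, and a region of 251 bp followed from 1472 bp downstream. All of the printed Trp53 promoter lay inside the covering region, with a CCAAT match on the opposite strand 8 to 4 bases before the start and an E-box match 10 to 15 bases after it. Of the 9 genes, 4 (Trp53, Mdm2, Bax and Zmat3) had 2 or more regions within 1 kb of a start (95% Wilson interval 18.9 to 73.3%). The share was 22.5% in the 40 other pathway genes and 14.9% in all protein-coding genes. The second region was only 73 bp wide in Mdm2 and 120 bp in Bax. Of the 9, 2 (Trp53 and Zmat3) had 3 or more, against 2.28% of all protein-coding genes. The highest count among the 40 other pathway genes was also 3. For Zmat3, which had no annotated start, the regions were counted at its outer ends. The widest start region of Trp53 stood at the 29.5th percentile of the widest start regions of 13627 genes. The summed width of its 3 regions, 1416 bp, stood at the 95.4th. Wrap53, a gene on the opposite strand whose outer limit lies 98 bp from that of Trp53, shared all 3 regions within 1 kb of its own starts, so the data cannot divide them between the pair.

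**Figure D1:**
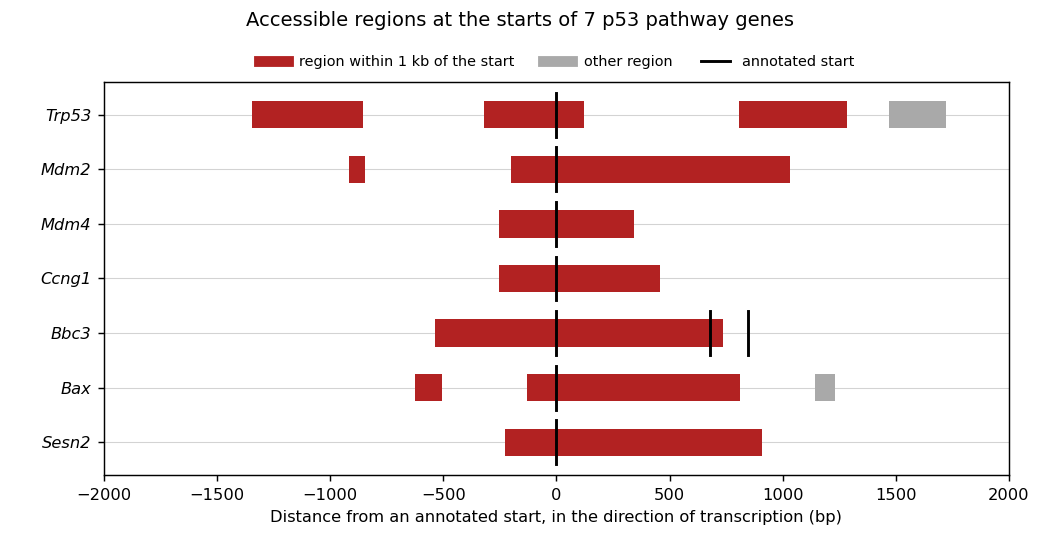
Regions from 2000 bp upstream to 2000 bp downstream of an annotated start, in the direction of transcription, for the 7 genes with a start in the RefSeq table; bars are regions to scale and black ticks are annotated starts, and for Mdm4 the inner start is at 0. The covering region reached 1032 bp downstream in Mdm2, 906 bp in Sesn2 and 809 bp in Bax, and 122 bp in Trp53.

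The inhibitors Mdm2 and Mdm4 differed at their starts. Mdm2 had one of the widest start regions of the set, 1233 bp at chr10:117709726-117710958, at the 94.3rd percentile of the widest start regions of all genes. It reached only 200 bp upstream of the start but 1032 bp into the gene, and that downstream extent was at the 98.7th percentile of 10532 annotated starts that lay inside a region, whose median was 320 bp. The p53-responsive promoter is known to lie inside the gene, downstream of this start. Its position and sequence were not in the promoter table and were not searched here. Whether the wide region covers that promoter is therefore unknown. A second region, of 73 bp, the smallest width in the list, ended 845 bp upstream. In the Mdm2 promoter printed above, 250 of the 300 bases lay inside the wide region, among them 2 GC boxes at 104 to 99 and 88 to 83 bases before the start, a CCAAT match at 72 to 68 bases before it and an ETS-type match at 8 to 2 bases before it.

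Mdm4 has 2 annotated starts, and the atlas covered one of them. A region of 599 bp at chr1:133025072-133025670 covered the inner start, with 254 bp upstream and 344 bp downstream. The outer start, 5171 bp farther upstream, had no region within 1 kb, and the nearest lay 2882 bp away. The 2 printed sequences differ in composition as well. The inner promoter had 49.7% G and C, 9 CpG pairs and an ETS-type match at 21 to 27 bases after the start, and all 300 of its bases were accessible. The outer promoter had 43% G and C, 4 CpG pairs, none of the motifs searched and no accessible base. Because the outer limit of the gene was bare, Mdm4 was the only member without a region within 1 kb of either outer end, where the share over all genes was 62%. Of its other regions, 2 of 491 and 595 bp lay inside the gene and began 10938 and 10139 bp downstream of the outer start. The region nearest to the outer start, 744 bp at chr1:133033469-133034212, contained the whole of the lysine tRNA gene n-TKctt26. All of this region also lay inside Gm41953, a long noncoding RNA gene that spans the outer start of Mdm4. A second tRNA gene, n-TKctt25, lay just beyond the region and was not touched. Over the genome, 265 of 408 annotated tRNA genes (65.0%) touched a region.

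Ccng1 encodes cyclin G1, a long-known p53 target. It had 7 regions in its window, the fewest of the 9 genes, and its start region of 713 bp at chr11:40754828-40755540 was close to the middle of all genes (55.3rd percentile). That region extended 254 bp upstream and 458 bp downstream of the start and held the whole printed promoter. The promoter carried 4 CCAAT matches, the most of any member, at 216, 123 and 42 bases before the start and 1 base after it, counted to the first base of each match. A narrow region of 101 bp lay 0.833 kb beyond the far end of the gene.

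Bbc3 and Bax, genes of the mitochondrial death pathway, had wide start regions and the most regions nearby of the members. The 11 other pathway genes for apoptosis and death did not share this. Their widest start region had a median of 427 bp and their windows a median of 7 regions. Over all protein-coding genes these medians were 669 bp, among genes with a region at a start, and 7. Bbc3 encodes Puma, a BH3-only protein that frees Bax and its relative Bak to act. A region of 1272 bp at chr7:16309046-16310317, at the 95.3rd percentile of widest start regions, covered the first and the second of its 3 annotated starts and held all 300 bases of the printed promoter. The third start lay 114 bp beyond the edge of the region. The Bbc3 promoters were also the richest in G and C, with 76% at the first start, 74.7% at the second and 78% at the third, and they held 5, 4 and 7 GC boxes, counting overlapping matches separately. The promoters of the last 2 starts overlap and share part of these matches. A region of 398 bp lay inside the gene, 4235 to 4632 bp downstream of the first start, and 5 regions of 175 to 488 bp formed a run between 6.28 and 13.3 kb below the gene.

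Bax encodes the protein that opens the outer mitochondrial membrane. Its start region of 938 bp at chr7:45466089-45467026 reached 128 bp upstream and 809 bp downstream of the start, and the downstream extent was at the 95.2nd percentile of covered starts. Flanking regions of 120 bp, ending 506 bp upstream, and of 87 bp, beginning 1145 bp downstream, were much narrower. The Bax promoter held 3 GC boxes and 2 E-box matches, at 9 to 4 bases before the start and 35 to 40 bases after it. E-box matches were present in 3 of the 10 promoters, namely those of Trp53, Bax and the third start of Bbc3. The shares were 7.84% of the 21262 promoters of protein-coding genes and 10.7% of those that touched a region. The Bbc3 match, 64 to 59 bases before the third start, lay outside the accessible region, which ended 114 bp before that start.

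The targets that act on RNA, transcription and metabolism showed contrasting starts. Zmat3 encodes an RNA-binding zinc finger protein, and its accessible DNA was broken into many narrow pieces. Within 1 kb of its upper outer end lay 4 regions, of 108, 134, 350 and 195 bp in order of position, the last of them at chr3:32366210-32366404. The widest stood at the 15.8th percentile of widest start regions, the lowest of the 9 genes, and the sum of 787 bp at the 56.0th. A long noncoding RNA gene, 4930429B21Rik, overlapped this end and contained both the 350 and the 195 bp region. Zmat3 also had the most regions touching the gene itself, 8, which was at the 96.2nd percentile of all protein-coding genes. Trp53inp1 encodes a stress-induced protein linked to autophagy and cell death. A single region of 918 bp at chr4:11155824-11156741 spanned its lower outer end, and no other region touched the gene. Sesn2 encodes sestrin 2, a stress-induced protein that restrains the growth kinase mTORC1. Its start region of 1135 bp at chr4:132509550-132510684 reached 228 bp upstream and 906 bp downstream of the start, and the downstream extent was at the 97.3rd percentile. Its promoter, of which 278 of 300 bases were accessible, held a GC box 64 to 59 bases before the start and 2 CCAAT matches. The 2 other regions in Sesn2 were 79 and 73 bp wide.

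The covering region lay mainly downstream of the start in several members. Of the 8 annotated starts of the 7 genes that lay inside a region, 6 had more accessible bases downstream than upstream. The exceptions were Trp53 and the second start of Bbc3, which shares its region with the first. Over 10532 covered starts of all protein-coding genes, 47.6% had more bases downstream, and the medians were 342 bp upstream and 320 bp downstream. Mdm2, Sesn2, Bax and the first start of Bbc3 were each above the 92nd percentile downstream, while Ccng1, at the 69.5th, Mdm4, at the 53.9th, and Trp53, at the 18.8th, were not. These are descriptions of 8 starts in 7 genes, and no test was made.

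**Figure D2:**
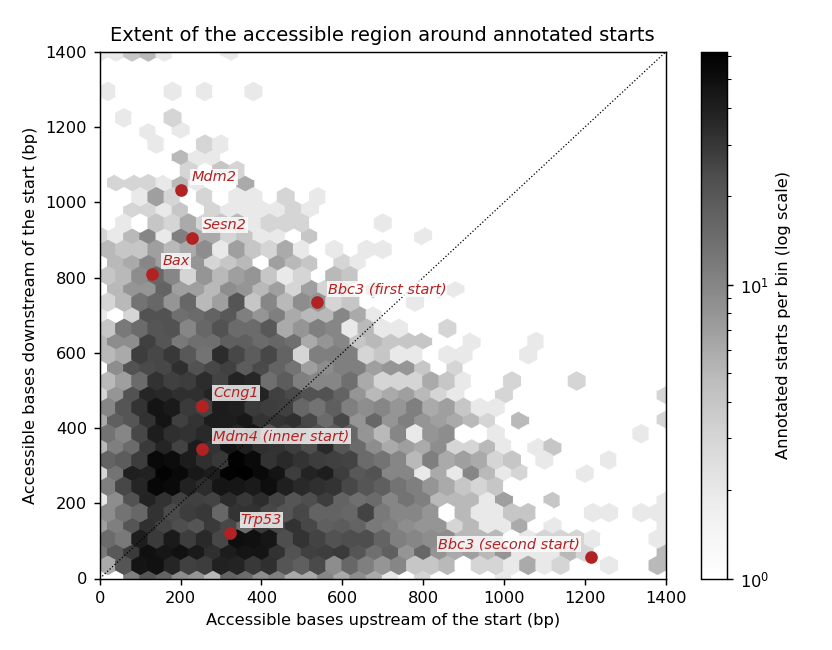
Accessible bases upstream (x axis, bp) and downstream (y axis, bp) of annotated starts that lay inside a region; grey bins count starts of all protein-coding genes on a log scale, with values above 1400 bp drawn at 1400, red points are the p53 pathway genes and the dotted line marks equal extent. Mdm2 at 200 and 1032 bp, Sesn2 at 228 and 906 bp and Bax at 128 and 809 bp lie far above the line.

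None of the 10 promoters held a p53 response element with up to 2 mismatches outside the cores, and such an element was in 28 of the 21262 promoters of protein-coding genes (0.132%). The element searched was the p53 consensus of 2 half-sites without a spacer, 20 bases long, with both cores exact. It reads the same on both strands. With up to 3 mismatches, a setting chosen after the data were seen, matches appeared in the first Bbc3 promoter and in that of Trp53, against 0.475% of all promoters. The Bbc3 match, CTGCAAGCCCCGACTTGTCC at chr7:16309486-16309505, lay 97 to 78 bases before the first start, and the Trp53 match, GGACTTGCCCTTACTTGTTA at chr11:69580284-69580303, lay 75 to 56 bases before its start. Both were inside the accessible region. A match is a string of letters and no evidence of binding, and response elements outside these 300 bases were not searched. GC boxes were found in 6 of the 10 promoters, 3 of them those of Bbc3, against 46.2% of all promoters and 69.1% of the promoters that touched a region. CCAAT matches were found in 5 of the 10, against 38.2% of all promoters and 40.2% of those that touched a region. Over the 10 promoters the median was 61% G and C and 21 CpG pairs. These 10 belong to 7 genes, with 3 from Bbc3, the richest in G and C, and 1, the outer Mdm4 promoter, without an accessible base. The medians were 62% and 22 for promoters that touched a region and 48.3% and 3 for those that did not. Over all promoters they were 56.3% and 13.

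**Figure D3:**
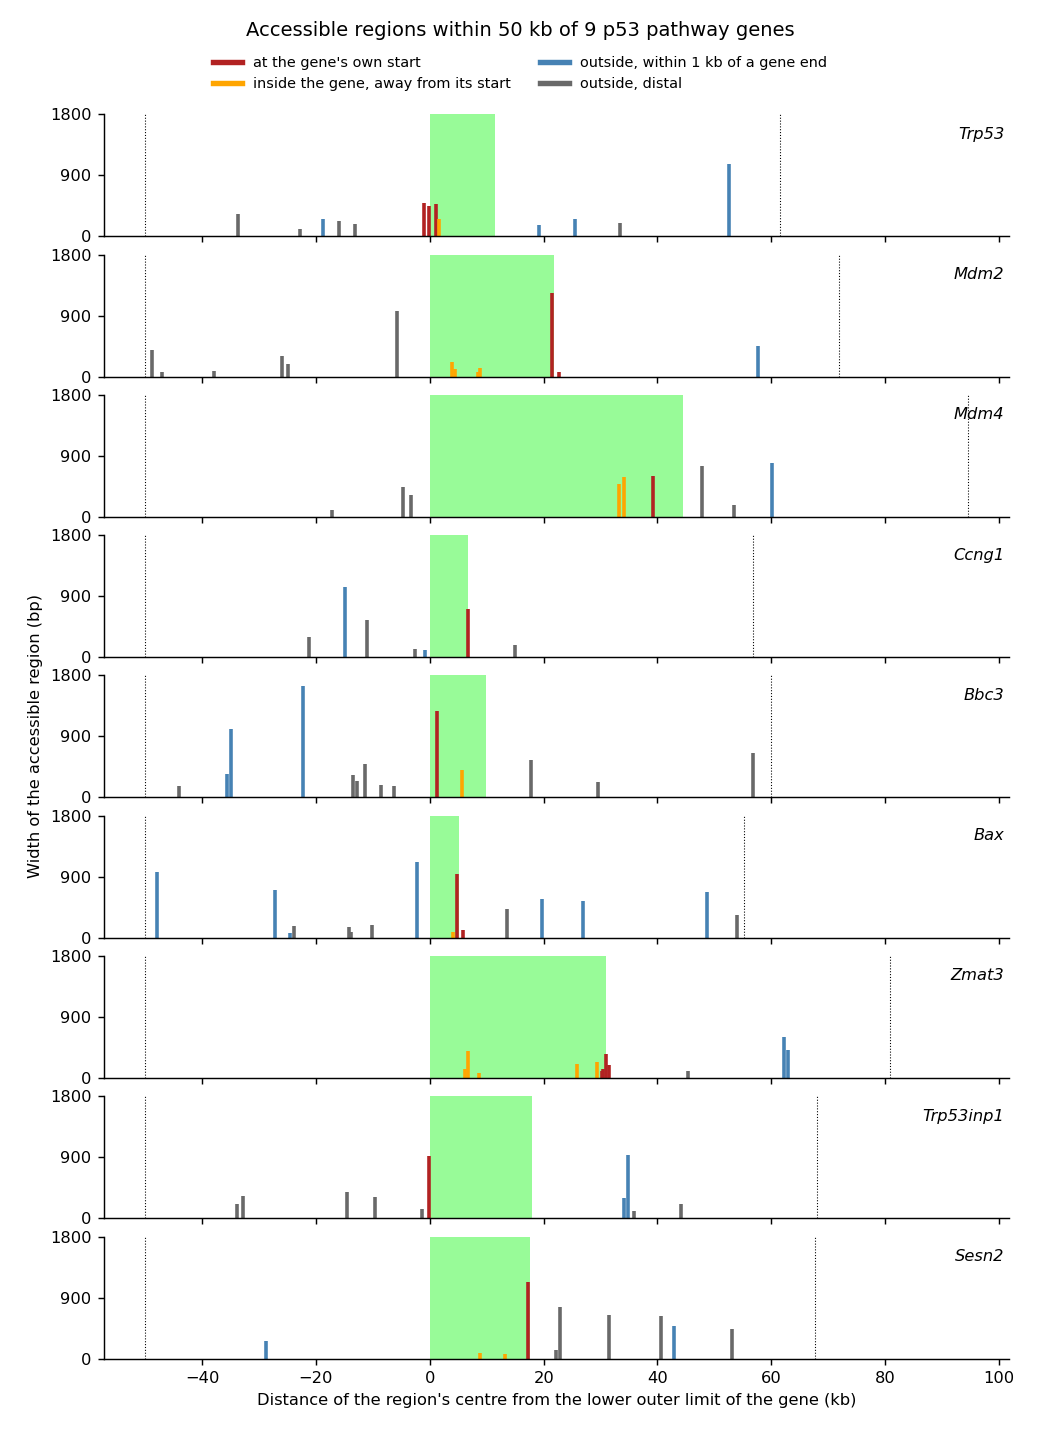
The 104 regions in the windows of the 9 genes, 1 panel a gene in the direction of the genome; the x axis is the distance of the centre of a region from the lower outer limit of the gene in kb, the height of a bar is the width of the region in bp, green marks the gene and dotted lines the limits of the window. The widest region, of 1641 bp, lies in the Bbc3 window at the start of Ccdc9, and the Zmat3 bars are all 606 bp or less.

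The surroundings of the 9 genes held more regions than those of most genes. The windows held 16 regions for Bax, 14 for Bbc3, 13 each for Trp53 and Mdm2, 12 for Zmat3, 10 each for Trp53inp1 and Sesn2, 9 for Mdm4 and 7 for Ccng1, with a median of 12. All protein-coding genes had a median of 7, with quartiles of 3 and 10. In 8 of the 9 genes the count was above the median of all genes, and Ccng1 was equal to it. Windows differ in length because genes do, and per 100 kb of window the members had a median of 9.17 regions, from 6.23 in Mdm4 to 15.2 in Bax, against 4.68 over all genes. All 9 genes were above that median and 7 above the upper quartile of 7.60. The share of the window that was accessible was highest in Bbc3, at 7.01%, and Bax, at 6.79%, the 99.1st and 98.9th percentiles of all genes, and lowest in Zmat3, at 2.26%, where the many regions were narrow. The median over all genes was 1.83%.

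Gene density differed between the windows, and its part in these counts was not tested. The Bax window touched 8 other protein-coding genes and the Trp53 window 7, and genes with 8 and 7 such neighbours had medians of 11 and 10 regions. Bbc3 had 4 neighbours, Mdm2 and Sesn2 had 3, Mdm4, Ccng1 and Trp53inp1 had 2, and Zmat3 had 1. Genes with 4 and with 3 neighbours had a median of 7 regions, those with 2 a median of 6 and those with 1 a median of 5. Each of the 9 genes was above the median of its own class, and Mdm2, Bbc3, Bax, Zmat3 and Trp53inp1 were above the upper quartile. Zmat3 stood farthest from its class by ratio, with 12 regions against 5.

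**Figure D4:**
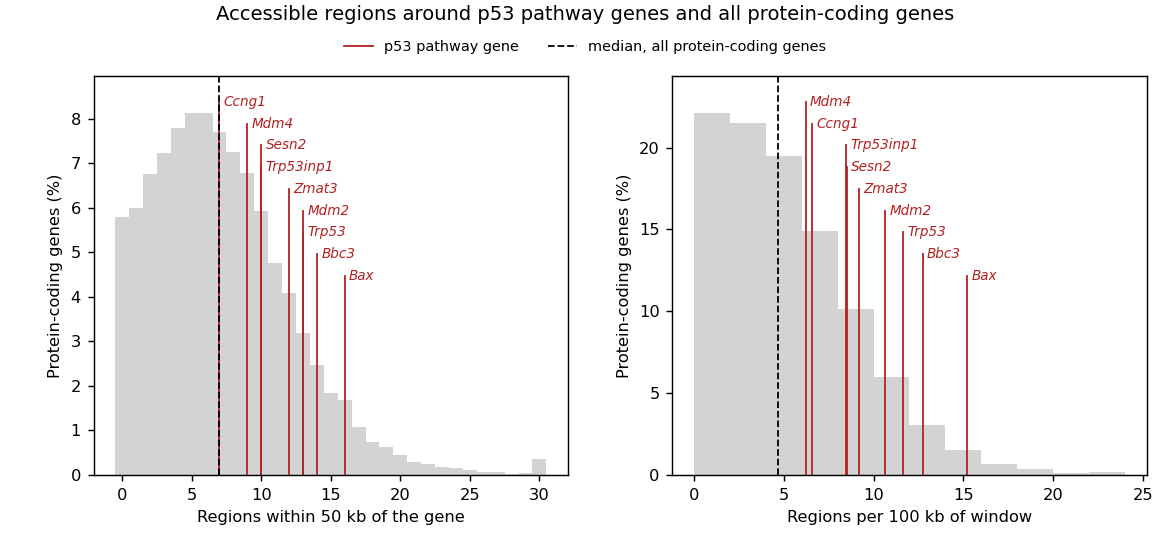
Distribution of the number of regions within 50 kb of a gene (left) and per 100 kb of window (right) over 21883 protein-coding genes, as a percentage of genes, with the 9 p53 pathway genes as red lines of arbitrary height and the median of all genes as a dashed line; the last bin on each axis holds all higher values. The 9 genes range from 7 to 16 regions and from 6.23 to 15.2 regions per 100 kb.

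Not all of these regions belong to the gene at the centre of the window. Of the 104 regions, 16 lay within 1 kb of a start of the member, 16 elsewhere inside it, 42 below and 30 above it in genome order. Away from the member's own start, 24 lay within 1 kb of an outer end of a protein-coding gene, which was a neighbour in 23 cases and the far end of Ccng1 in 1. At Bax this was so for 7 of 16 regions, among them 1116 bp at the start of Ftl1, which encodes ferritin light chain, 970 bp at an outer end of Ntf5 and 677 bp at the start of Nucb1. The widest region of all, 1641 bp at chr7:16285249-16286889, lay at the start of Ccdc9 in the Bbc3 window. In the Trp53inp1 window the widest region, 933 bp at chr4:11190880-11191812, lay at an outer end of the cyclin E2 gene Ccne2, and in the Ccng1 window a region of 1029 bp at chr11:40733142-40734170 lay at the divergent starts of Hmmr and Nudcd2.

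Distal regions, over 1 kb from both outer ends of every protein-coding gene, numbered 65 of 104 (62.5%). In the windows of all protein-coding genes, with a region counted in each window that held it, the share was 65.4%, and the atlas as a whole, which also holds regions far from genes, had 79.5%. The covered inner start of Mdm4 is among the 65, since it lies inside the gene. There were 10 each around Mdm2 and Bbc3, 8 around Mdm4, 7 each around Bax, Trp53inp1 and Sesn2, 6 each around Trp53 and Zmat3 and 4 around Ccng1, and the median was 7, against 4 for all genes. They lay inside another protein-coding gene in 26 cases, between protein-coding genes in 22 and inside the member in 17. Noncoding genes were not counted here. Around Trp53, Mdm2 and Bax none lay between protein-coding genes. The distal regions were mostly narrow, with a median of 219 bp, against 246 bp for distal regions of the whole atlas. Only 1 of them reached 900 bp, a region of 975 bp at chr10:117682651-117683625 that lay 5.25 kb beyond the far end of Mdm2 and inside the neighbouring gene Cpm. Next came 763 bp at chr4:132515254-132516016, 4.80 kb upstream of Sesn2. It overlapped 9 bp of the alanine tRNA gene n-TAagc8.

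The 16 regions within 1 kb of a member's own start had a median width of 485.5 bp, against 549 bp for regions within 1 kb of a start of any protein-coding gene. Over the 104 regions the median was 308.5 bp, against 302 bp in the windows of all protein-coding genes. At a cut of 900 bp, which was not planned and has no alternative here, 13 (12.5%) were at least that wide, against 7.03% in those windows. Of these 13, 7 lay at an outer end of another gene, 1 was distal and 5 covered the starts or outer ends of Bbc3, Mdm2, Sesn2, Bax and Trp53inp1. The widest region at a start had a median of 918 bp over the 9 genes, with a range of 350 bp in Zmat3 to 1272 bp in Bbc3, against 669 bp and quartiles of 449 and 890 bp over the 13627 genes with such a region. The 9 genes fell on both sides of the median of all genes. Above it were Bbc3, Mdm2, Sesn2, Bax, Trp53inp1 and Ccng1, and below it Mdm4, Trp53 and Zmat3. At the smallest width of 73 bp there were 6 regions (5.77%), against 3.80% in the windows of all protein-coding genes, and 3 of them were in the Mdm2 window.

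**Figure D5:**
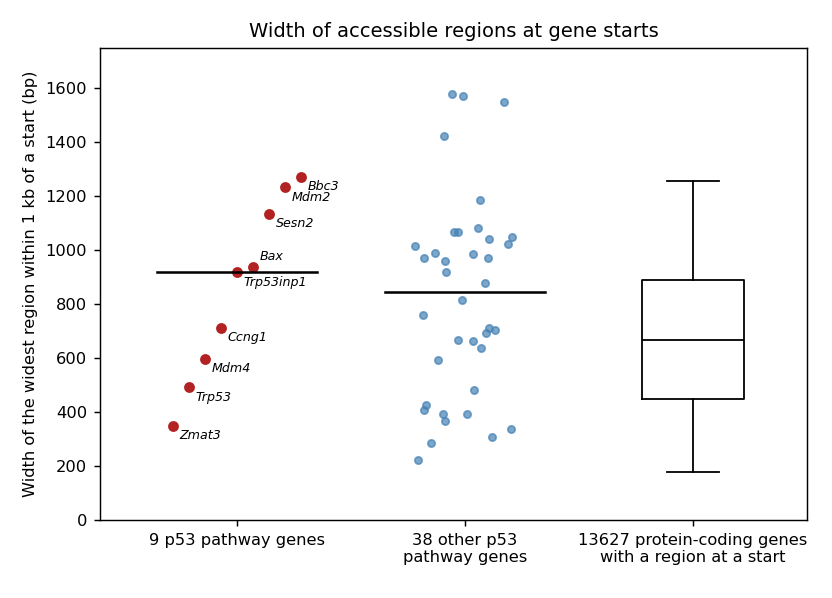
Width in bp of the widest region within 1 kb of a start for the 9 p53 pathway genes, 38 other genes of the pathway and 13627 protein-coding genes; points are genes, horizontal bars are medians and the box shows the median and quartiles with whiskers at the 5th and 95th percentiles. The 9 genes range from 350 to 1272 bp, with a median of 918 bp against 669 bp.

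Few regions lay close to the limit of 50 kb. The outermost region inside it was 48.6 kb from Mdm2 and from Bax and 46.5 kb from Bbc3, and the nearest regions beyond it were 51.0 kb from Mdm4, 53.4 kb from Ccng1 and 55.0 kb from Bax. Beyond the Zmat3 window the next region was 143 kb from the gene.

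The other 40 genes of the pathway, covering arrest, death, repair, metabolism, damage signalling and regulators of p53, had a lower median count of regions around them than the 9 members. Their windows held a median of 8 regions, against 7 for all genes, and of 5.63 regions per 100 kb, and 21 of 40 were above the median count of all genes, against 8 of the 9 members. The difference between the lists was not tested. The 2 genes without a region at a start were Trp63 and Trp73, which encode the relatives p63 and p73 of p53. No region lay within 1 kb of the annotated starts or outer ends of Trp73. Trp63 had no start in the promoter table, so only its outer ends were checked, and no region lay within 1 kb of them. Trp63 and Trp73 had 4 and 8 regions touching the gene and 5 and 16 in the window. The most regions were around Usp7, a deubiquitinase that stabilises Mdm2 and p53, with 23, and Pidd1, a death domain gene, with 18. The fewest were around Perp, a membrane protein of desmosomes and cell death, with 1, followed by Fas, Eda2r, Polk and Ccng2 with 2 each. All 4 of these and Perp had a region at the start, of 427 bp in Fas, 665 bp in Perp, 1069 bp in Eda2r, 1424 bp in Polk and 1550 bp in Ccng2. Cdkn1a, which encodes the arrest protein p21 and was named after its values were seen, had 13 regions in its window and 3 within 1 kb of its starts, the widest of 759 bp. Over the 38 genes with a region at a start the widest had a median of 847 bp, against 918 bp for the 9 members.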

How the data were processed

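Per the labels' protocols, each library started from 50000 lysed cells and was made with the Nextera kit. Per the submitters' processing notes, the tools were cutadapt, Bowtie2, Picard, SAMtools, bedtools and MACS2 2.1.1, with build GRCm38 (mm10). The sources used here state neither their parameters nor any shift for the Tn5 insertion nor how libraries were merged. The authors deposited 3 columns, a chromosome and 2 positions in bp, with no count, score or value per library, so depth is unknown and the planned tests between groups were not made. The molecule in the labels is total RNA, which does not match an ATAC-seq library, and titles and protocol were followed.

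Regions were intersected with RefSeq gene limits and starts of GRCm38.p6 by a minimum of 1 bp, in Python 3.11.15 with pandas 2.3.3 and NumPy 2.4.6. A start was taken from the RefSeq promoter table, which held 17491 of the 21883 protein-coding genes, 7 of the 9 members and 33 of the 40 other pathway genes. Either outer end was used for the rest. Percentiles place tied genes at the middle of their tie. In the promoter table, 1683 of 1683 overlapping pairs on opposite strands read alike. The overlap and motif code was tested on simulated data. Members and lists were chosen with earlier results of these data known, so no set test was made and lists are described by counts and medians. Named other genes were those without a region at a start, the 2 with the most and the 2 with the fewest regions, ties included, and genes sharing a window or start region with a member. The planned search of regions for a response element needs a genome sequence and was replaced by the promoter search. Alternatives covered the start distance, window, overlap, region width, gene end and mismatches.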

Additional observations from a re-analysis of the deposited data

How the results depend on the processing

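No paired analysis was possible because a list of regions carries no replicate values, and leaving out a replicate and searching the regions themselves for a response element were not run, for want of such values and of a genome sequence. Of 44 alternatives, 32 stayed within 1.5 times the reported count or inside the 95% interval of a share or median. Some of them could not move. All 9 genes had a region within 1 kb of a start, so all must have one within 2 kb. With 0 matches at 2 mismatches there must be 0 at 1. The settings of 1 and 3 mismatches and of genes with an annotated start only were not planned. With regions of at least the median width of the atlas, the windows of the 9 genes held 55 regions, 27 of them distal, a median of 6 a gene and a median width of 551 bp, all by construction of the narrower set. All 9 genes kept a region at a start in that set, against 55.8% of all protein-coding genes. With windows of 100 kb there were 161 regions, 98 of them distal, and a median of 19 a gene. Counts rise with the size of the window. The median count over all protein-coding genes was not set beside these alternatives, so the higher count of the members was not checked there. The share of all protein-coding genes with a region at a start was 59.9% within 500 bp, 65.2% within 2 kb and 61.4% when at least 50% of the width of a region had to lie inside. With either outer end counted, 8 of the 9 genes had a region, Mdm4 being the one without. With 3 mismatches, chosen after seeing the data, 2 members held a response element in a promoter, against 0 with 1 or 2 mismatches.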
